A study of Mus musculus with 14 samples.

Results

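Markers of Purkinje cells and of cerebellar inhibitory interneurons were followed in RNA sequencing (RNA-seq) libraries of granule neuron progenitors (GNPs). The 29 genes were listed by name as markers of these cells, from the 41381 genes of the table. They comprise 18 Purkinje cell genes, 9 genes of inhibitory interneurons and 2 genes of unipolar brush cells, the excitatory interneurons of the granular layer. GNPs were isolated on percoll gradients from cerebella of P7 mice whose strain the labels spell C56Bl6/J, and the sexes of the pups were not distinguished. The 5 libraries labelled WT are from pups with floxed Chd7 that lack Cre. The 5 labelled Het came from Atoh1-Cre::Chd7 f/+ mice and the 4 labelled Hom from Atoh1-Cre::Chd7 f/f mice. Chd7 encodes a chromatin remodeller. Atoh1-Cre acts in the granule cell lineage and does not target Purkinje cells, and it probably recombines less in the posterior lobe. Sequencing ran in 2 batches, the first with 8 libraries (WT 1 to 3, Het 1 to 3, Hom 1 and 2) and the second with 6 (WT 4 and 5, Het 4 and 5, Hom 3 and 4). No source says whether libraries came from single or pooled pups, so p-values measure the spread between libraries, which may in part be technical.

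Purkinje cells are the sole output neurons of the cerebellar cortex. They release GABA, and in the young cerebellum they secrete the Sonic hedgehog protein that keeps GNPs dividing. Basket, stellate and Golgi cells are the inhibitory interneurons, born from Pax2-positive precursors of the Ptf1a lineage, while GNPs arise from the Atoh1 lineage of the rhombic lip. A GNP preparation is expected to hold few cells of either inhibitory class, so RNA made only by them would show what else was isolated with the GNPs. Some of the listed genes, such as Nefl and Aldoc, are also made by other cells. Which cells the RNA of each gene came from was not tested. In bulk RNA, fewer cells of a type and less RNA per cell cannot be told apart.

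All libraries carried the granule lineage identity on their labels. The summed TPM (a share of all transcripts, corrected for transcript length) of 13 granule lineage genes was 3835 to 5733, and Atoh1, the transcription factor that specifies GNPs, had a TPM of 20.8 to 50.6. Chd7 itself followed the labels in batch 2 only. Its TPM was 121 to 272 in libraries labelled WT, 137 to 181 in those labelled Het and 126 to 185 in those labelled Hom, and in batch 1 both libraries labelled Hom exceeded all 3 labelled WT. In batch 2 all 4 libraries labelled Het or Hom (126 to 150) were below both labelled WT (203 and 272). These values are of the whole gene, so they do not show whether its floxed part was removed. The cause of the batch 1 values was not tested. All directions below rest on the labels. Of the 29 genes, 26 passed the filter on low values (4 or more libraries at a TPM of 1 or more). Pcp2 passed with 8 libraries, Calb1 with 10 and Sst with 12, and the other 23 with all 14. Skor2 (0 libraries), Nefh (2) and Ppp1r17 (3) did not pass and were not tested.

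Some Purkinje cell markers differed widely between libraries of the same label. Pcp2, Calb1, Car8 and Pcp4 were high in WT 1 to 3, which were sequenced in batch 1, and next highest in Het 3 of the same batch. In WT 4 and WT 5, which carry the same genotype label but were sequenced in batch 2, Pcp2, Calb1 and Car8 lay within the range of the libraries labelled Het and Hom of that batch or below it, while Pcp4 (26.6 and 22.76) was lower than in WT 1 to 3 but above every library labelled Hom (12.31 to 15.28). The inhibitory genes showed another order, with Hom 2 highest for 6 of 9 genes.

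**Figure D1:**
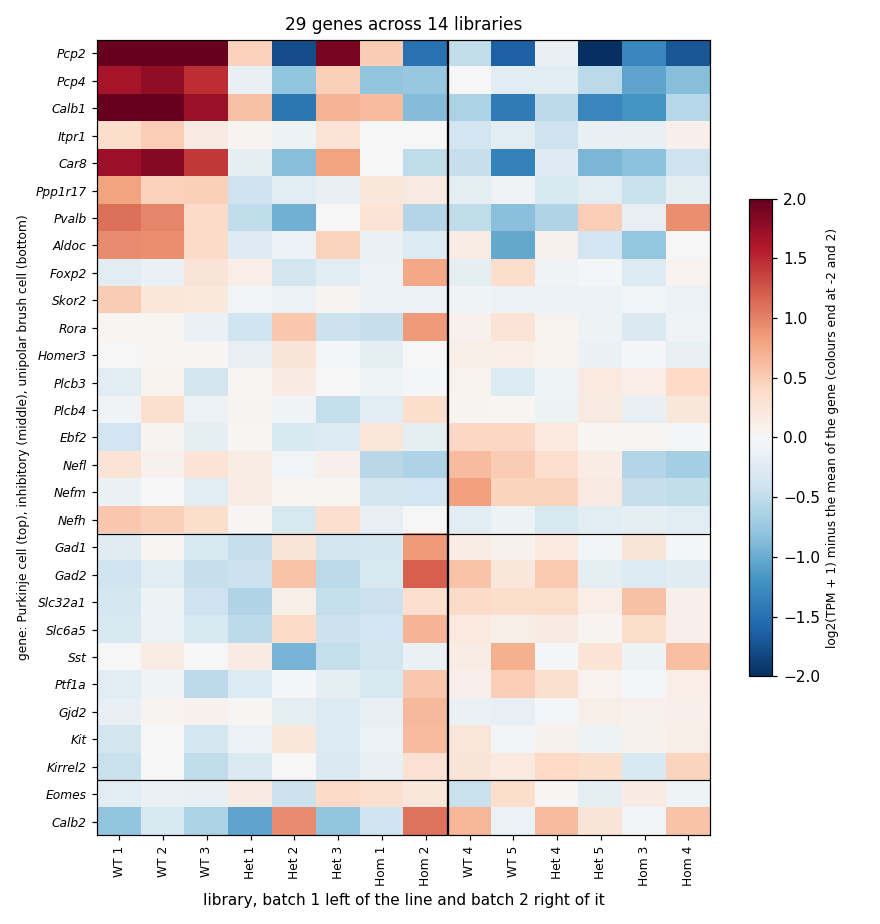
Level of the 29 genes (rows) in the 14 libraries (columns, batch 1 left of the vertical line), as log2(TPM + 1) minus the mean of the gene over all libraries. Pcp2, Pcp4, Calb1 and Car8 are above their means in WT 1 to 3 and Het 3, Nefl and Nefm are below theirs in Hom 1 to 4, and most inhibitory genes are highest in Hom 2.

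Pcp2 (ENSMUSG00000004630; GRCm38 chromosome 8, 3623371 to 3625545, minus strand) encodes a modulator of G proteins found in Purkinje cells and retinal bipolar cells. Its TPM was 27.84, 30.62, 18.53, 2.05 and 0.39 in WT 1 to 5, 4.92, 0.26, 15.1, 2.9 and 0 in Het 1 to 5, with 5.16, 0.54, 0.74 and 0.32 in Hom 1 to 4. WT 1 to 3 and Het 3 stood above the rest, Het 1 and Hom 1 were at an intermediate level, and the groups overlapped. Calb1 (ENSMUSG00000028222; chromosome 4, 15881264 to 15908064, plus strand) encodes calbindin, the calcium buffer by which Purkinje cells are usually stained. Its TPM was 17.57, 18.37, 13.07, 1.76 and 0.61 in WT 1 to 5, 5.4, 0.57, 5.85, 1.98 and 0.73 in Het 1 to 5, with 5.63, 1.35, 0.87 and 1.88 in Hom 1 to 4. Here Het 3 stood little above Hom 1 and Het 1. Car8, whose product binds the inositol trisphosphate receptor, had a TPM of 19.13, 21.02, 15.45, 3.46 and 1.4 in WT 1 to 5, 4.37, 2.41, 9.8, 4.14 and 2.25 in Het 1 to 5, with 5.2, 3.35, 2.48 and 3.64 in Hom 1 to 4. Within batch 1, Calb1 and Car8 ordered the 8 libraries exactly as Pcp2 did, from WT 2 at the top to Het 2 at the bottom.

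Itpr1, the inositol trisphosphate receptor of the Purkinje cell calcium store, varied less. Its TPM was 15.4, 17.16, 13.35, 8.88 and 9.94 in WT 1 to 5, 12.35, 11.01, 14.55, 8.6 and 10.64 in Het 1 to 5, with 11.92, 11.73, 10.53 and 12.77 in Hom 1 to 4. WT 1 to 3 and Het 3 were again the 4 highest, but by a small margin. Aldoc, the glycolytic enzyme known as zebrin II that marks stripes of Purkinje cells and is also made by astrocytes, was at 39.26 to 58.94 in these 4 libraries and at 14.27 to 33.53 in the others. Nefh, the heavy neurofilament subunit of large axons, was at 0.8 to 1.08 in the 4 and at 0.15 to 0.46 elsewhere. Skor2, a transcriptional corepressor of differentiating Purkinje cells, was at 0.13 to 0.54 in the 4 and at 0 to 0.05 elsewhere. In all, 8 of the 18 Purkinje cell genes (Pcp2, Pcp4, Calb1, Car8, Itpr1, Aldoc, Nefh and Skor2) were higher in each of WT 1 to 3 and Het 3 than in any other library. Nefh and Skor2 did not pass the filter, and the other 6 stand against 15 that did, beside 1.18% of all genes tested. These 4 libraries were singled out after their values were seen, so this is a description with no test. Ppp1r17, a substrate of cyclic GMP-dependent kinase in Purkinje cells, was highest in WT 1 to 3 (1.12 to 1.69) but not in Het 3 (0.39). Pvalb, the parvalbumin gene shared by Purkinje and molecular layer interneurons, reached 11.3 and 10.25 in WT 1 and WT 2 but also 9.85 in Hom 4.

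**Figure D2:**
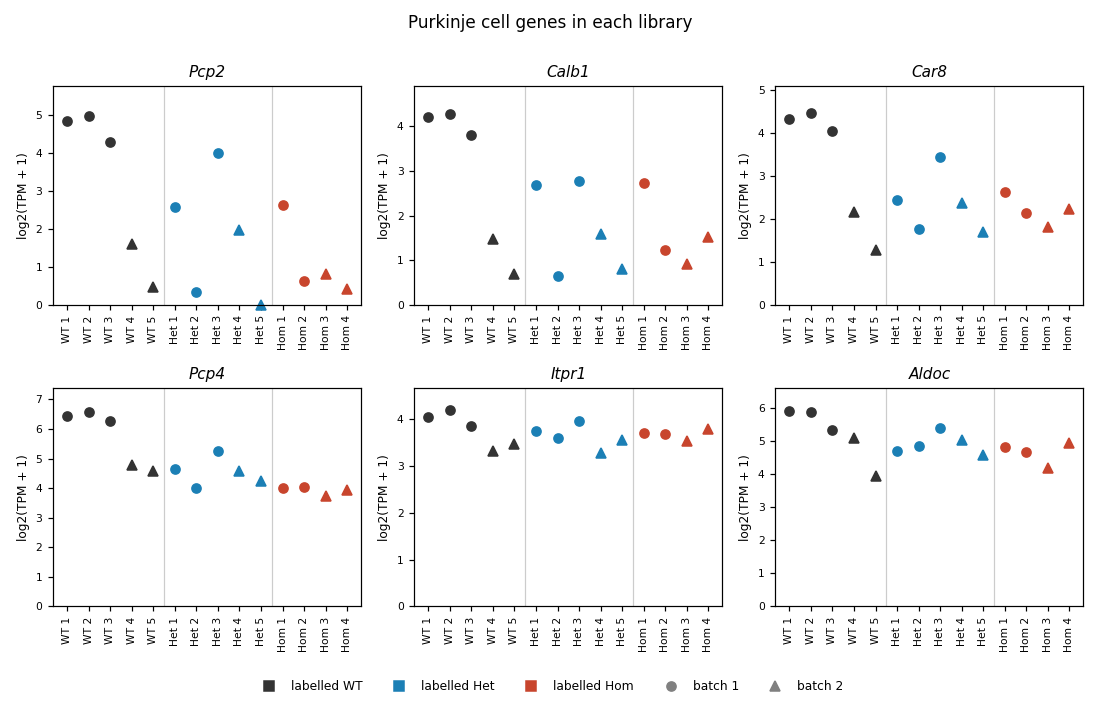
log2(TPM + 1) of 6 Purkinje cell genes in each library, with 1 point per library, colours for the genotype label and shapes for the batch. WT 1 to 3 and Het 3 are the 4 highest libraries for each gene, with the widest gap for Pcp2, then Car8, and narrow ones for Itpr1 and Calb1.

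Genes of other cell types moved with these 4 libraries. The summed TPM of 11 endothelial and mural genes was 47.67, 63.62 and 59.63 in WT 1 to 3 and 30.85 in Het 3, against 150 to 608 in the other 10 libraries, and 10 of the 11 genes were lower in each of the 4 than in any other library (2.75% of all genes tested). The summed TPM of 12 astroglial genes was 1822, 2022 and 1302 in WT 1 to 3 and 1276 in Het 3, against 419 to 1000 elsewhere. Fabp7, S100b and Hopx, which mark Bergmann glia and other astroglia, were the 3 of 12 that were higher in each of the 4 than in any other library (1.18% of all genes tested). Fabp7 made the largest part of the astroglial sum, at 593.02 to 978.53 in the 4 and 143.75 to 345.82 elsewhere. Sox9, another of the 12, ran otherwise, highest in WT 5 (46.65) and lowest in WT 3 (18.16). All 11 and all 12 genes passed the filter on low values. The 4 libraries were thus also high for the astroglial sum, though not for every astroglial gene, and low for vascular RNA. Of the 4, 3 carry the WT label.

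Among 18 further Purkinje cell genes that are not among the 29, 3 followed the same libraries, beside 1.18% of all genes tested. This too is a description with no test. Itpka and Rgs8, a kinase and a G protein regulator of Purkinje cells, were 2 of them, and the third was Shh, the mitogen for GNPs. Itpka reached a TPM of 1 only in WT 1 to 3 and Het 3 (1.41 to 2.08, at most 0.55 elsewhere). It thus passed the filter through those libraries alone. Shh TPM was 0.13, 0.16, 0.09 and 0.15 in WT 1 to 3 and Het 3 and at most 0.05 elsewhere, too low to pass the filter. Dab1, the adaptor of the reelin pathway in Purkinje cells, showed no such order, with a TPM of 6.78 to 12.12, and in libraries labelled Hom it changed by 0.03 (log2, SE 0.15, limma adjusted p 0.959).

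The planned correlations with Pcp2 within batches could be read only in part. In batch 1 the 8 libraries lay at 3 separate levels of Pcp2 (15.1 to 30.62, 4.92 and 5.16, and 0.26 and 0.54). No level holds 6 libraries, so the relation could not be tested there and no coefficient is given. Over all 8 libraries, 6 of 28 genes (Pcp4, Calb1, Itpr1, Car8, Pvalb and Nefh) had an adjusted exact permutation p under 0.05 for both Pearson's r and Spearman's rho. Correlations were computed for the listed genes only, so no share over all genes stands beside this count. It can reflect the separate levels alone and is not read as a result about these genes. In batch 2 (6 libraries, Pcp2 at 0 to 2.9) 0 of 28 genes had adjusted p-values under 0.05 for both, and 1 (Itpr1) had an unadjusted Spearman p under 0.05. The smallest p that 6 libraries allow is 0.00139. In batch 2 Itpr1 ran against Pcp2 (rho = -0.89, exact permutation p = 0.0333, adjusted p 0.206 over 56 pairs; r = -0.78, exact p = 0.0653, adjusted p 0.261), and r fell to -0.10 without the 2 libraries farthest from the Pcp2 median.

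Pcp2 and Pcp4 were examined for a shared promoter element, since both genes follow the same 4 libraries. The RefSeq promoter table (GRCm38.p6) held 18 of the 29 genes. The motif searched was AGGTCA on both strands, the half-site bound by nuclear receptors that include the product of Rora, a receptor required for Purkinje cell maturation. The 250 bases before the first Pcp2 start (chr8:3625548-3625797, minus strand) and before the Pcp4 start (chr16:96467356-96467605, plus strand) are shown 5′ to 3′ in the direction of the gene, with the match in capitals (TGACCT where it is on the opposite strand).
Pcp2: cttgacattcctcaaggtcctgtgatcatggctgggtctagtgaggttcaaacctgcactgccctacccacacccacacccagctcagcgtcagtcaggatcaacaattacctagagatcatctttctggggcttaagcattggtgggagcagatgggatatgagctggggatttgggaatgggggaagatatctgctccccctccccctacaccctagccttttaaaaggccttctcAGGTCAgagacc
Pcp4: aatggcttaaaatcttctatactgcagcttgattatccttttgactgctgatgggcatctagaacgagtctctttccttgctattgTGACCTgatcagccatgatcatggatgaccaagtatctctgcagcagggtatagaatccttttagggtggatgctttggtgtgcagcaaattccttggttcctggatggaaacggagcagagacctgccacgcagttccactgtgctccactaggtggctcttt
The Pcp2 match begins 12 bases and the Pcp4 match 164 bases before the start. Matches lay in the promoters of 4 of the 18 genes (Pcp2, Pcp4, Homer3 and Plcb3), beside 14% of all 32851 promoters and 15.8% of all 27025 genes in the table. Of the 4 Pcp2 promoters, 3 had a match. Aldoc, which also follows the same 4 libraries, was among the 18 genes and had 0 matches in each of its promoters. A match describes letters only. Rora RNA did not share the order of Pcp2: it was highest in Hom 2 (16.8) and Het 2 (13.31), where Pcp2 was at 0.54 and 0.26, and was between 6.15 and 10.88 in the other 12 libraries. Homer3 and Plcb3 did not share it either.

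Whether genotype changed these markers was addressed with a model of genotype and batch over all 14 libraries. Of the 26 genes tested, 3 were lower in libraries labelled Hom than in those labelled WT, namely Nefl, Nefm and Pcp4, beside 1.41% of all genes tested, and 0 were higher, beside 1.27%. All 3 are Purkinje cell genes on the list, and 0 of 9 inhibitory and 0 of 2 unipolar brush cell genes were called. Calls and shifts in this comparison were not limited to Purkinje cell genes. Of 12 granule lineage genes tested, 2 were called lower, the transcription factor gene Neurod1 and the vesicular glutamate transporter gene Slc17a7 (named after their values were seen), and 5 were lower at an unadjusted p under 0.05 (6.42% of all genes). The median log2 change was -0.82 over the 12 astroglial genes and 1.34 over the 11 endothelial and mural genes, with 0 called in either list, and 7 of the astroglial genes were lower and 6 of the endothelial genes higher at an unadjusted p under 0.05. The median log2 change was -0.15 over the 15 Purkinje cell genes tested, 0.13 over the 9 inhibitory genes and 0.02 over all genes. After batch removal, the exact Kruskal-Wallis test of the genotypes called 3 lower genes and 0 higher ones (unadjusted p under 0.01), beside 2.22% and 2.42% of all genes, and they were Nefl (p = 3.65e-04), Pcp4 (p = 9.51e-04) and Nefm (p = 0.00849). Nefl, Nefm and Pcp4 were also the 3 whose libraries labelled Hom all lay below every library labelled WT of the same batch (3.56% of all genes), and 0 lay above (5.44%).

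Nefl (ENSMUSG00000022055; chromosome 14, 68083863 to 68089095, plus strand) encodes the light neurofilament subunit, the core of the axonal neurofilament. It is made by Purkinje cells and by many other neurons with long axons. Its TPM was 26.55, 23.25, 26.46, 34.47 and 31.31 in WT 1 to 5, 24.2, 21.03, 23.38, 27.64 and 24.25 in Het 1 to 5, with 14.5, 13.83, 14.23 and 13.23 in Hom 1 to 4. All 4 libraries labelled Hom lay below all 10 others. On average Nefl was at 28.4 ± 4.44 (SD, n = 5) in WT, at 24.1 ± 2.37 (SD, n = 5) in Het and at 13.9 ± 0.55 (SD, n = 4) in Hom. Nefl fell by 0.98 on the log2 scale in libraries labelled Hom against WT (SE 0.09, 0.51 of the WT level on the TPM + 1 scale, limma adjusted p 7e-05), with changes of -0.80 in batch 1 alone and -1.2 in batch 2 alone. It was the only one of the 26 genes called in Hom against Het, where it changed by -0.76 (log2, SE 0.09, limma adjusted p 0.00276), beside which 0.277% of all genes were lower and 0.15% higher. Without WT 1 to 3 and Het 3 together, an alternative added after the data were seen, the change in Hom against WT was -1.14 (limma adjusted p 0.00675). WT 1 to 3 are the lowest libraries labelled WT for Nefl, and no WT library of batch 1 remains. The deeper fall thus comes with the choice of libraries and tests nothing.

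Nefm (ENSMUSG00000022054; chromosome 14, 68082590 to 68124846, minus strand) encodes the medium subunit that joins the same filament. Its TPM was 21.71, 23.81, 20.4, 42.9 and 33.02 in WT 1 to 5, 26.56, 24.6, 24.28, 32.89 and 27.41 in Het 1 to 5, with 18.3, 18.22, 17.17 and 16.74 in Hom 1 to 4. The libraries labelled Hom were again below all others, but WT 3 was close to them. On average Nefm was at 28.4 ± 9.51 (SD, n = 5) in WT, at 27.1 ± 3.47 (SD, n = 5) in Het and at 17.6 ± 0.77 (SD, n = 4) in Hom. The log2 change was -0.64 in Hom against WT (SE 0.15, limma adjusted p 0.035), with -0.25 in batch 1 alone and -1.11 in batch 2 alone, and this call was lost in 13 of 29 alternatives. Without WT 1 to 3 and Het 3 it was -1.02 (limma adjusted p 0.0184). WT 1 to 3 are also the lowest libraries labelled WT for Nefm, and no WT library of batch 1 remains. The deeper fall thus comes with the choice of libraries and tests nothing. Against Het the change was -0.62 (SE 0.15, adjusted p 0.11), which missed the threshold. The annotated span of Nefl lies within that of Nefm on the opposite strand. Reads counted without regard to strand could be split between them only where their transcripts share sequence, which was not examined.

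Pcp4 (ENSMUSG00000090223; chromosome 16, 96467606 to 96525793, plus strand) encodes a small calmodulin-binding peptide of Purkinje cells. Its TPM was 85.75, 93.98, 76.16, 26.6 and 22.76 in WT 1 to 5, 23.81, 14.97, 37.32, 22.74 and 17.96 in Het 1 to 5, with 15.05, 15.28, 12.31 and 14.28 in Hom 1 to 4. The libraries labelled Hom were below every WT of their batch, while Het 2 (14.97) lay among them. Pcp4 fell by 1.73 on the log2 scale in Hom against WT (SE 0.31, limma adjusted p 0.00914), by 2.41 in batch 1 alone (adjusted p 0.0178) and by 0.84 in batch 2 alone (adjusted p 0.193). Without WT 1 to 3 and Het 3, which are the highest libraries for Pcp4, the change was -0.78, a smaller fall that the choice of libraries itself brings. With the mean levels of astroglial and endothelial genes as covariates it was -0.91 (adjusted p 0.0621). Its annotated span overlaps that of Igsf5.

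**Figure D3:**
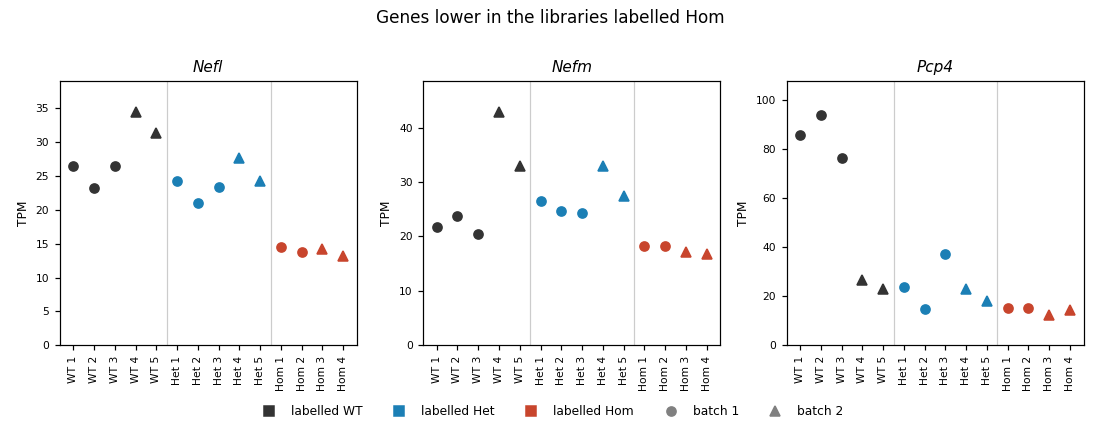
TPM of the 3 genes called lower in libraries labelled Hom against WT, with 1 point per library, colours for the genotype label and shapes for the batch. Nefl (13.23 to 14.5) and Nefm (16.74 to 18.3) lie below all other libraries in Hom 1 to 4, while Pcp4 in WT 4 and WT 5 (26.6 and 22.76) is far below WT 1 to 3.

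The best known Purkinje cell markers were not called. Pcp2 had a log2 change of -1.92 in Hom against WT (SE 0.76, limma adjusted p 0.255), with -3.08 in batch 1 alone and -0.44 in batch 2 alone. For Calb1 the change was -1.13 (SE 0.56, limma adjusted p 0.366), with -2.12 in batch 1 and 0.14 in batch 2, so its direction turned between the batches. Without WT 1 to 3 and Het 3 the changes were -0.30 for Pcp2 and 0.21 for Calb1. These libraries were singled out as the highest for these genes and 3 of the 4 are labelled WT, so leaving them out moves the change upward by construction and tests nothing. Car8 was not called either, with -1.90 in batch 1 and 0.30 in batch 2. The difference of the Hom effect between batches was called for 0 of the 26 genes (0.0115% of all genes), with 9 at an unadjusted p under 0.05 (17.2% of all genes). That of the Het effect was called for 0 (0.00577%), with 5 at an unadjusted p under 0.05 (9.3% of all genes). For Car8 the Hom effect was 2.20 higher in batch 2 than in batch 1 (SE 0.65, unadjusted p 0.00593, adjusted p 0.15), and for Nefm it was 0.85 lower (log2 difference -0.85, SE 0.18, unadjusted p 6.63e-04, adjusted p 0.127). The log2 difference was 1.57 for Pcp4 (SE 0.41, limma unadjusted p 0.00266, adjusted p 0.1325). For Nefl it was -0.40 (SE 0.16, limma unadjusted p 0.0262, adjusted p 0.229). The remaining Purkinje cell genes tested were Foxp2 and Ebf2, which encode transcription factors, the scaffold gene Homer3, and Plcb3 and Plcb4, the phospholipases of complementary Purkinje cell stripes. With Rora and Itpr1 they had log2 changes between -0.15 (Homer3) and 0.24 (Plcb3) in Hom against WT. Aldoc had a log2 change of -0.52 (SE 0.29, adjusted p 0.441), with -0.95 in batch 1 and 0.04 in batch 2, and Pvalb one of -0.09 (SE 0.44, adjusted p 0.957), with -0.98 in batch 1 and 1.05 in batch 2. Homer3 was the most even of the 29, at 51.22 to 69.82 TPM in all libraries. It was at 58.27 in Hom 2 and 69.82 in Het 2, where Pcp2 was at 0.54 and 0.26, so it did not follow Pcp2.

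In libraries labelled Het, 0 of the 26 genes were called against WT (limma), beside 0.00577% of all genes, and an unadjusted p under 0.05 was reached by 3 lower genes (Pcp4, Calb1 and Nefl) and 0 higher ones, beside 2.88% and 3.2% of all genes. Pcp4 had a log2 change of -1.19 (SE 0.30, unadjusted p 0.00143, adjusted p 0.37). It was the only gene of the 26 with every library labelled Het below every WT library of its batch (1.09% of all genes), and 0 lay above (1.43%). In batch 2 this rests on a very small margin, with Het 4 at 22.74 and WT 5 at 22.76. The log2 change of Pcp4 in batch 2 alone was -0.27 (limma adjusted p 0.822). The comparisons of Het and of Hom share the same WT libraries, among them WT 1 to 3. Nefl had a log2 change of -0.22 in Het (SE 0.09, adjusted p 0.728) and Nefm of -0.01 (SE 0.14, adjusted p 0.992).

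**Figure D4:**
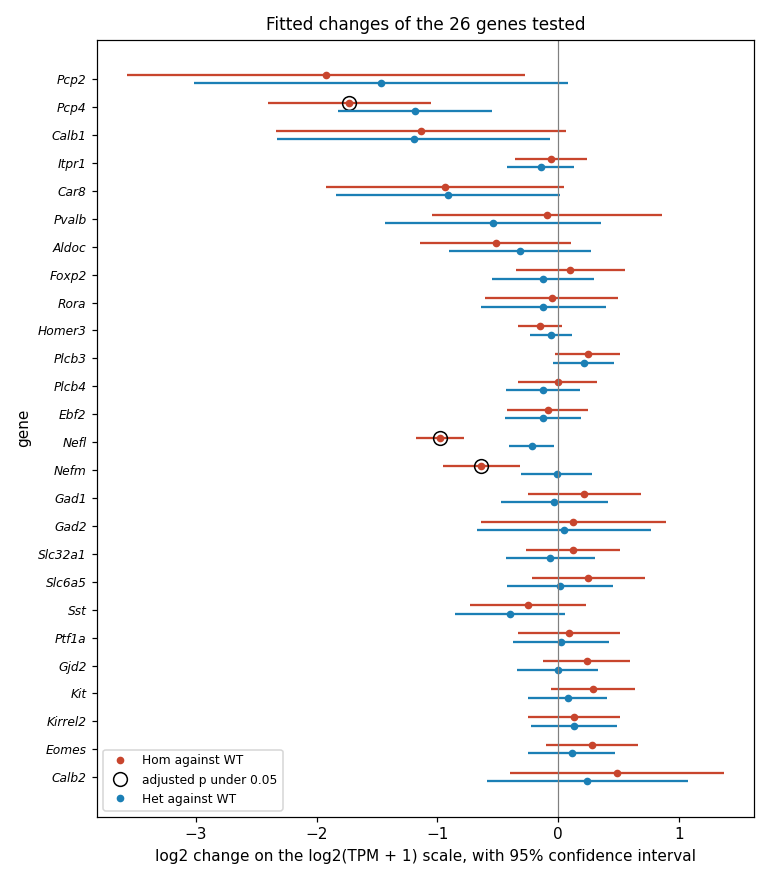
Log2 change (points) with 95% confidence interval (lines) of the 26 genes tested, for Hom against WT in red and Het against WT in blue, from the model with batch. Black circles mark an adjusted p under 0.05, which Pcp4, Nefl and Nefm reached in Hom and no gene reached in Het. The intervals are widest for Pcp2 and Calb1.

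Of the 18 further Purkinje cell genes, 16 were tested, and 0 were called higher in libraries labelled Hom against WT. Over all genes 1.27% were called higher, so 0 of 16 is near that share. Lhx1, a transcription factor of postmitotic Purkinje cells, was among those called lower, as were 1.41% of all genes. Its TPM was 122 to 220 in WT, 135 to 161 in Het and 106 to 134 in Hom, and the fitted change was -0.45 (log2, SE 0.11, limma adjusted p 0.0408). Lhx1, like Nefl and Nefm, was higher in WT 4 and WT 5 than in WT 1 to 3, unlike Pcp2 and Calb1. Median changes were -0.22 over the 16 genes in Hom and -0.20 in Het, beside 0.02 and 0.007 over all genes.

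The inhibitory interneuron genes did not separate the genotypes. Gad1 (ENSMUSG00000070880; chromosome 2, 70553072 to 70602014, plus strand) encodes the main GABA-synthesising enzyme, which Purkinje cells also make. Its TPM was 40.22, 48.72, 37.93, 52.92 and 50.7 in WT 1 to 5, 34.17, 57.24, 36.51, 54.53 and 45.47 in Het 1 to 5, with 36.86, 86.73, 56.7 and 46.06 in Hom 1 to 4. Hom 2 was the highest and Het 1 the lowest, and the groups overlapped. The log2 change was 0.22 in Hom (SE 0.22, 95% confidence interval -0.25 to 0.68, limma adjusted p 0.71) and -0.03 in Het (SE 0.20, interval -0.47 to 0.41). Gad2, the second such enzyme, was at 13.21 in Hom 2 and at 3.26 to 8.23 elsewhere. Slc6a5, the glycine transporter of Golgi cells, was also highest in Hom 2 (11.59) and lowest in Het 1 (4.46).

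Slc32a1, which loads GABA and glycine into synaptic vesicles, had a TPM of 9.98, 11.95, 9.46, 17.15 and 16.79 in WT 1 to 5, 8.19, 14.1, 8.99, 17.08 and 14.27 in Het 1 to 5, with 9.34, 16.54, 19.98 and 14.01 in Hom 1 to 4. Its levels in batch 1 were low except in Het 2 and Hom 2. Hom 2 was also highest for Ptf1a, the determinant of the GABAergic lineage (4.79), for the gap junction gene Gjd2 (5.8), and for Kit, a receptor on molecular layer interneurons (58.38). Hom 1, of the same label and batch, was at 2.18, 2.85 and 34.4 for these 3 genes. Kirrel2, an adhesion molecule gene, ranged from 12.75 to 25.38 and Sst, the neuropeptide gene of some Golgi cells, from 0.44 to 3.47. Over the 9 genes the log2 changes lay between -0.25 (Sst) and 0.28 (Kit) in Hom and between -0.40 (Sst) and 0.13 (Kirrel2) in Het. The summed TPM of the 9 genes was 105 to 161 in all libraries but Hom 2, where it was 221.

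Of 10 further genes of inhibitory precursors and interneurons, 9 were tested and 0 were called in either genotype by limma, with 1 higher in Hom and 0 in Het at an unadjusted p under 0.05, beside 8.51% and 3.2% of all genes. Pax2, which marks the precursors of the interneurons, was at 16.39 to 38.3 TPM in WT, 14.71 to 31.1 in Het and 20.44 to 45.95 in Hom, a log2 change of 0.41 in Hom (SE 0.22, adjusted p 0.432). Eomes and Calb2, the 2 unipolar brush cell genes, were not called either. Eomes ranged from 17.63 to 32.18 TPM with a log2 change of 0.28 in Hom (SE 0.18, adjusted p 0.499). Calb2, the calretinin gene, was highest in Hom 2 (22.81) and Het 2 (20.7) and lowest in Het 1 (4.38), like Gad1.

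**Figure D5:**
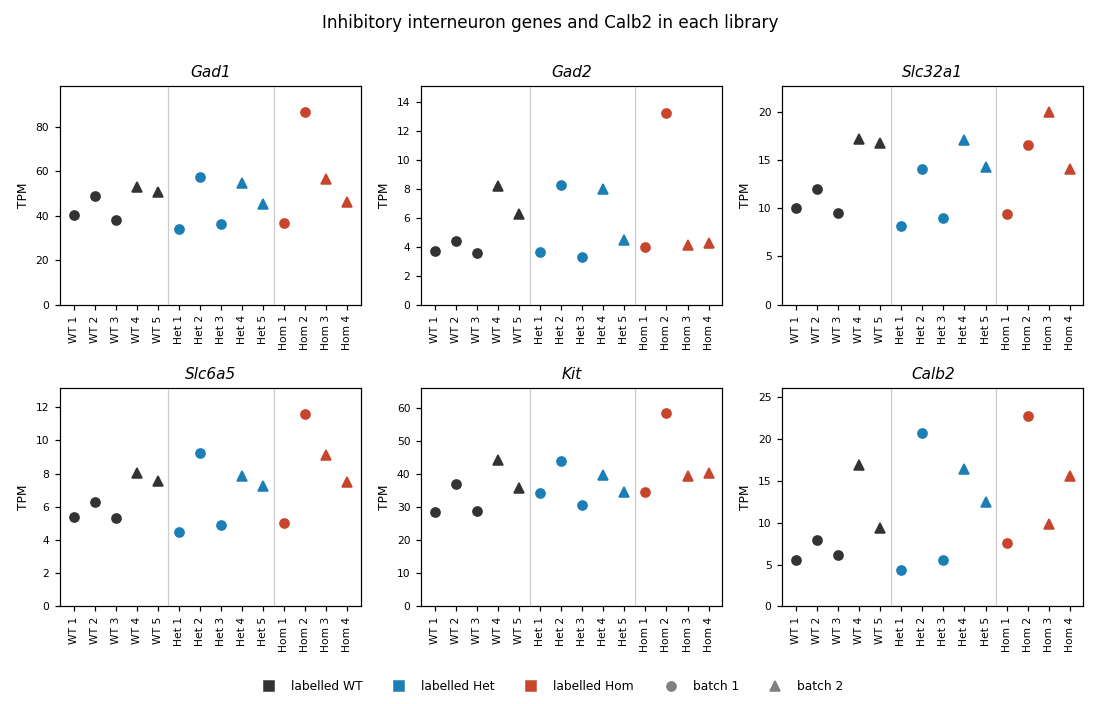
TPM of 5 inhibitory interneuron genes and Calb2 in each library, with 1 point per library, colours for the genotype label and shapes for the batch. Hom 2 is the highest library for Gad1, Gad2, Slc6a5, Kit and Calb2, and for Slc32a1 the libraries of batch 2 are high in all 3 labels.

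Batch was tested in the same model. In batch 2, 4 of 26 genes were lower than in batch 1 (Pcp2, Calb1, Car8 and Itpr1), beside 5.61% of all genes tested, and 1 was higher (Slc32a1), beside 7.88%. The log2 difference was -2.06 for Pcp2 (SE 0.61, limma adjusted p 0.0425) and -1.59 for Calb1 (SE 0.45, adjusted p 0.034). It was -1.2 for Car8 (SE 0.37, adjusted p 0.048), -0.36 for Itpr1 (SE 0.11, adjusted p 0.0474) and 0.55 for Slc32a1 (SE 0.15, adjusted p 0.0258). These calls rest on few libraries. Without WT 3, WT 4, WT 5 or Hom 1 in turn 0 genes were called, without WT 1, WT 2, Het 1, Het 3, Het 5 or Hom 3 there was 1, and without Het 4 there were 3. Nefl and Nefm ran the other way, with log2 differences of 0.18 (adjusted p 0.136) and 0.32 (adjusted p 0.0875) in batch 2.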

How the data were processed

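The authors mapped single-end 50 bp reads of total RNA libraries to the mouse transcriptome (mm10) with Bowtie 1.0.0 and estimated expression with RSEM 1.2.15, and deposited 1 table of TPM values for 41381 genes. TPM keeps no read depth, so no counting error was computed. Control columns were matched by their number to the WT samples. Whether reads were counted by strand is not given in the sources used here.

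The scale of analysis was log2(TPM + 1), and a gene entered when 4 or more libraries had a TPM of 1 or more (17325 genes). Linear models with genotype and batch were fitted to all 14 libraries with limma 3.58.1 in R 4.3.3 (eBayes with trend). Two-sided p-values received Benjamini-Hochberg adjustment over all genes tested. A gene was called at an adjusted p under 0.05. Genotype-by-batch terms were tested in a second model. The study's ComBat step and Kruskal-Wallis test were approximated by removing the batch term and by an exact Kruskal-Wallis test over 252252 arrangements at an unadjusted p under 0.01. The batch term was removed with genotype kept in the fit, and libraries were then rearranged across batches. The p-values of this test are therefore approximate. The models were tested on simulated data. Alternatives changed the pseudocount, filter, scaling, batch handling, weights, covariates and libraries.

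The 29 members and all gene lists were chosen with earlier results of these data known. All members are named. Values in every library are given for members called in any comparison, members with no overlap within batch, Pcp2, Calb1 and Gad1. Other genes are named where they were called among other Purkinje cell or inhibitory neuron genes, with Chd7, Atoh1, Shh, Dab1 and Pax2 added. Some genes that this rule names are not reported here. Gene positions are from GENCODE vM21 (GRCm38), and promoter sequences from RefSeq (GRCm38.p6).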

Additional observations from a re-analysis of the deposited data

Results flagged for a closer look

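In 87 groups of values (29 genes in 3 genotype labels), 5 held a library far from the others of its label by Dixon's test, which chance gives in about 1 of 20 groups. Pcp2 was at 5.16 TPM in Hom 1, where the other 3 libraries labelled Hom were at 0.32 to 0.74. Car8 was at 9.8 TPM in Het 3, with the other 4 labelled Het at 2.25 to 4.37. Gad2 was at 13.21 TPM in Hom 2, with the other 3 labelled Hom at 3.96 to 4.24. Sst was at 3.47 TPM in WT 5, with the other 4 labelled WT at 1.73 to 2.04. Skor2 was at 0.05 TPM in Hom 3 and at 0 in the other 3 labelled Hom. No difference of a genotype effect between batches was called for any of the 26 genes by limma.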

How the results depend on the processing

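For Hom against WT, the 3 genes called became 0 in batch 2 alone, 1 with the replicate block and 1 with astroglial and endothelial levels as covariates, and 2 to 3 when a library was left out. Nefl lost its call only in batch 2 alone (1 of 29 alternatives), Pcp4 in 5 and Nefm in 13. One of the 5 leaves out WT 1 to 3 and Het 3, which lowers the Pcp4 and Calb1 differences by construction. For Hom against Het, the 1 gene called became 0 in batch 1 alone, batch 2 alone and with the block, and 1 to 2 without single libraries, with Nefm added without WT 4. Het against WT had 0 calls throughout. The batch comparison went from 5 genes to 3 with a pseudocount of 0.1, to 1 with all genes above 0 in at least 4 libraries, and to 0 to 7 without single libraries. The replicate numbers do not pair the libraries: 3 of 13 same-numbered pairs had a correlation of deviations over 0.1, and 3 of 14 libraries correlated best with their own number. The exact Kruskal-Wallis test gives no value for single pairs of genotypes other than its direction.

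Log2 changes of genes that were not called turned sign as follows. Calb1 in Hom was 0.14 in batch 2 alone, 0.24 with the astroglial and endothelial covariates and 0.21 without WT 1 to 3 and Het 3, and in Het 0.11 in batch 2 alone and 0.036 without those 4. Gad1 in Hom was -0.019 in batch 2 alone, -0.0075 with these covariates and -0.080 to 0.39 without single libraries, and in Het 0.16 with other Purkinje cell genes as covariate and -0.14 to 0.051 without single libraries. Nefm in Het was 0.19 in batch 1 alone, 0.066 with array weights and -0.086 to 0.11 without single libraries. The causes were not tested. TPM without depth leaves the precision of low values, such as Pcp2 in batch 2, unknown.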
